A study of Xenopus laevis with 111 samples.

Results

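The genes described here were those whose mRNA stood higher in transected than in sham spinal cords of *Xenopus laevis* tadpoles in the 0.5 to 2 h after surgery and whose mean difference was small at 16 to 21 h. They were selected on measured values, so these 2 windows are given as a description and were not tested. Levels were expressed as CPM, the expected counts of a gene per M counts of its library, and differences were taken on the scale of log2(CPM + 1) between paired libraries, 1 transected and 1 sham, that shared series and hour. Genes with a mean difference of at least 0.6 over the 10 pairs at 0.5 to 2 h, and between -0.3 and 0.3 over the 9 pairs at 16 to 21 h, were members. The rule found 390 genes of the 45099 listed (0.865%). Another 211 genes passed the early threshold but not the late limits, 101 of them at or above 0.3 and 110 at or below -0.3 at 16 to 21 h.

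The time series held 105 mRNA-seq libraries of the caudal spinal cord of tadpoles at NF stage 50, a stage at which the cord regenerates. Transected animals (36 libraries) had a dorsal incision of skin and muscle at mid-thoracic level followed by a complete cut of the cord, and sham animals (36 libraries) had the incision alone, so that every operated animal also carried damaged skin and muscle and had been anesthetized with MS222. Each condition was sampled from 0.5 to 21 h in series S1 to S6 and shared 8 libraries at 0 h, and uninjured animals without surgery gave 25 libraries in S7 and S8. In a separate experiment, transected animals were kept for 24 h in Torin1, an inhibitor of the kinase mTOR, or in its solvent DMSO, and gave 1 library each at 24, 48 and 96 h. A library was a pool of 10 spinal cords in S1 and S2 and of 12 in S3 to S8. S1 and S2 came from the same fertilization, and S3 to S6 from different batches of animals. The uninjured series S7 and S8 were both taken from the same batch.

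A cut through the spinal cord is known to break axons and vessels, to release the contents of dying cells and to start transcription within minutes. The fastest group, the immediate early genes, needs no new protein for its transcription and encodes largely transcription factors and signalling proteins whose mRNAs are short-lived. Incision of skin, anesthesia and handling can induce such genes as well, which is why the sham operation was the matched control. A pooled piece of tissue mixes cell types, and a change in the share of a cell type cannot be told apart from a change of mRNA within its cells. The identifiers of the gene models matched none of the 44456 genes of the RefSeq table used here, and no source used here pairs them with symbols, so the members' functions, cell types and sequences are not given.

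The time series libraries held between 9.96 and 76.6 M expected counts (median 18.3 M). The 20 libraries at 0.5 to 2 h were among the shallower ones, at 9.96 to 19.3 M. Members were moderately to weakly expressed. The median over members of the mean level was 5.71 CPM in the transected and 2.28 CPM in the sham libraries at 0.5 to 2 h, where it was 8.23 and 8.21 CPM over the 32328 genes that passed the filter on low counts. These medians correspond to mean expected counts of 69.3 in a transected and 27.6 in a sham library, and 70 members had a mean expected count under 10 in sham. Of the 390 members, 262 had a mean of 1 to 10 CPM in the early transected libraries, 127 reached 10 CPM, 23 reached 100 CPM, and the highest reached 1452 CPM. All but 1 member passed the filter, and counts of calls below are over these 389 genes.

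The 0 h libraries did not share a common starting level, which bears on what the early difference measured. The mean member level, in log2(CPM + 1), was 3.33 and 3.02 in the pair of S1 libraries at 0 h. It was 2.20 and 1.53 in S2, 1.58 in S3, 1.63 in S4, 1.14 in S5 and 1.16 in S6. Both S1 libraries thus stood above the other 6 libraries and above every sham library of the time series. At the level of single genes, 262 of the 390 members (67.2%) were higher in both S1 libraries at 0 h than in any other 0 h library, compared with 11.6% of the genes that passed the filter. The number of members is therefore also given without S1, and the tests against 0 h without S1 and S2. Each held-out reading below still used S1, either to choose the genes or to read them.

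**Figure D1:**
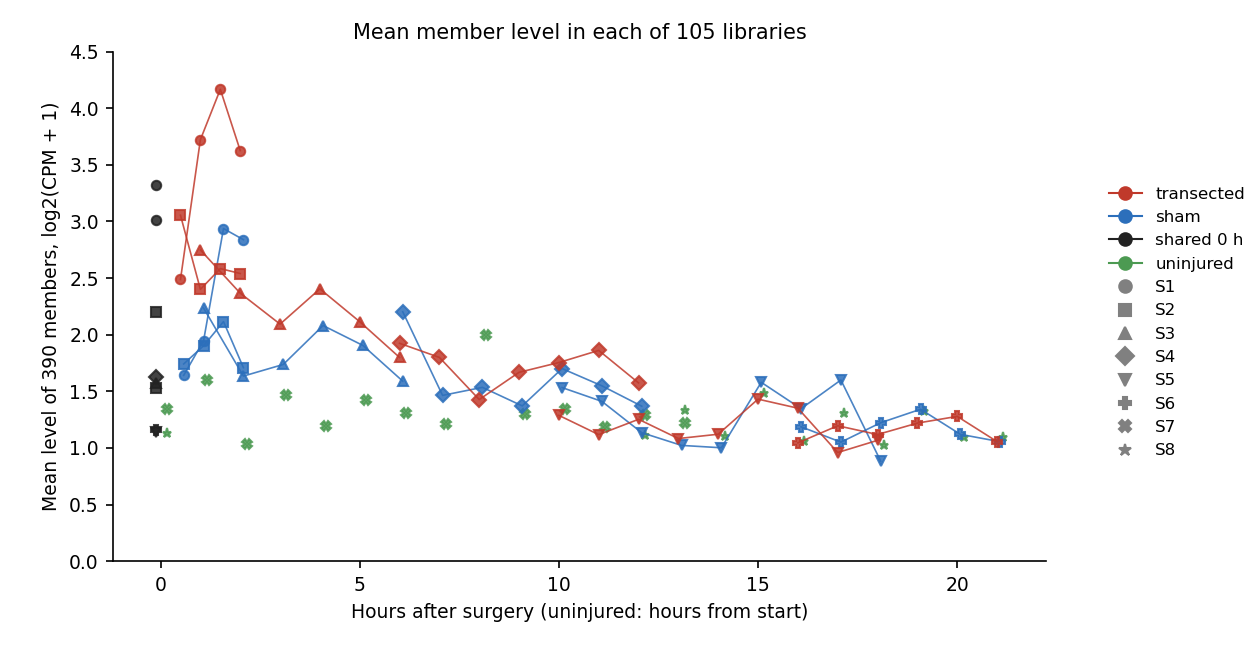
Mean level of the 390 members, log2(CPM + 1), in each of the 105 libraries of the time series against the hour of isolation. Each point is 1 library, colours give the condition, symbols the series, and lines join the hours of a series of operated animals. Transected libraries of S1 reach 4.17 at 1.5 h, while the black 0 h points of S1 already stand at 3.02 and 3.33.

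Within the selecting window, the early difference of members ran from the threshold to 1.94, with a median of 0.80 and quartiles of 0.69 and 1.02. It was 0.6 to 0.7 in 109 members, 0.7 to 1 in 179, 1 to 1.5 in 80 and at least 1.5 in 22. The nearest genes inside the early threshold had differences of 0.6011 and 0.6013 and those just outside 0.5981 and 0.5977. At the late limits, members had values up to 0.2999 and down to -0.2949, and the nearest genes outside had 0.3222 and -0.3021. The median SD of a member's early difference over the 10 pairs was 0.711, close to the size of the difference itself. The difference was above 0 in 10 of 10 pairs for 145 members, in 9 for 147, in 8 for 85 and in 7 for 13. In edgeR's quasi-likelihood test, 354 of 389 members were called higher in this window at an adjusted p under 0.05, where 4.34% of all genes tested were, and since the window chose the members this count supports nothing further. At 16 to 21 h, the other choosing window, 2 members were called higher (0.514%, against 19.1% of all genes tested) and 17 lower (4.37%, against 19.8%), so the late limits on the mean difference did not leave every member without a call. Averaged over the pairs of this window, members leaned lower in transected libraries, but the pairs differed. The median over members was -0.48 in the 17 h pair of S5, with 10.0% of members above 0. In the other pairs it lay between -0.11 and 0.12, and in the 18 h pair of S5 80.8% of members were above 0. Their median late difference was -0.06 on the scale of the rule, with 29.5% above 0, against 56.0% of the genes that passed the filter. In the edgeR fit their median was -0.31, with 22.1% above 0, against -0.048 and 44.2% over all genes tested.

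The size of the early difference depended on the series and the hour. In S1 the median over members was 0.79 at 0.5 h, 1.69 at 1 h, 1.24 at 1.5 h and 0.77 at 2 h. In S2, from the same fertilization, it was 1.21, 0.49, 0.43 and 0.70 at the same hours. In S3 it was 0.50 at 1 h and 0.78 at 2 h. The largest value thus fell at 1 h in S1 and at 0.5 h in S2. Gene by gene, 269 members had their highest difference at 1 h in S1, whereas 252 had it at 0.5 h in S2 and 252 at 2 h rather than 1 h in S3, so no common peak hour was found. Averaged over S1 and S2, the peak lay at 0.5 h for 134 members, at 1 h for 128, at 1.5 h for 47 and at 2 h for 81.

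**Figure D2:**
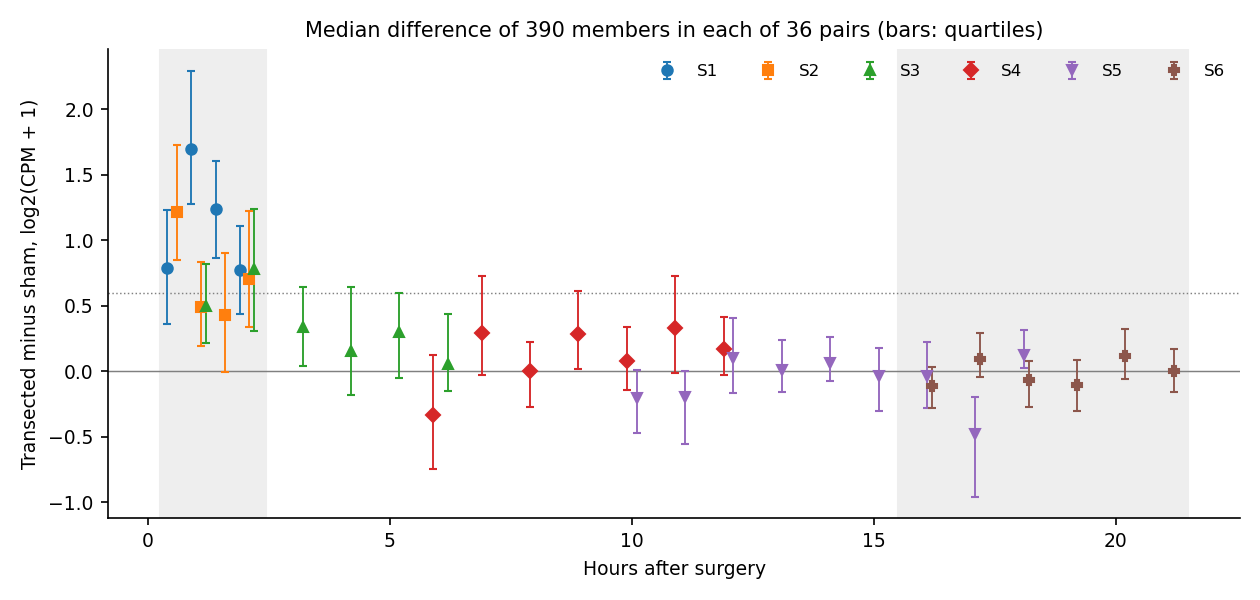
Transected minus sham difference, log2(CPM + 1), of the 390 members in each of the 36 pairs against the hour, with points at the median over members and bars at the quartiles. Grey bands mark the windows that chose the members and the dotted line marks 0.6; the medians of the 10 early pairs lie between 0.43 and 1.69, and from 3 h onwards they lie between -0.48 and 0.33.

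To read the early difference in libraries that had no part in the choice, the rule was applied again without each early series in turn. The 467 genes chosen on S1 and S2 had a median difference of 0.43 in the 2 pairs of S3 (quartiles 0.10 and 0.85), against 0.86 in the 8 pairs that chose them. Of these 467 genes, 372 (79.7%) were above 0 and 181 (38.8%) at or above 0.6 in S3, where 44.4% and 1.53% of the genes that passed the filter were. Read in S2, the 433 genes chosen on S1 and S3 were above 0 in 98.6% and at or above 0.6 in 43.9%, with a median of 0.56. Of the genes that passed the filter, 38.3% and 1.91% were. Read in S1, the 286 genes chosen on S2 and S3 were above 0 in 95.8% and at or above 0.6 in 78.7%, with a median of 0.97. The shares of the genes that passed the filter were 45.4% and 2.95% in S1. The direction of the difference was thus carried over to held-out animals for most of the genes, and its size was smaller than in the choosing pairs in S2 and S3. Without S1 the rule kept 244 of the 390 members.

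Because the difference between transected and sham does not say which of the 2 moved, the levels at 0.5 to 2 h were set against the 0 h libraries of the same series. In S3 the median over members was 0.90 above 0 h in transected and 0.31 above 0 h in sham libraries. In S2 it was 0.65 above 0 h in transected and 0.01 in sham. In S1 it was 0.14 in transected and -1.06 in sham, so that in this series the transected level lay near 0 h and the sham level below it. Transected libraries were at least 0.6 above 0 h for 264 members in S3 (67.7%), for 218 in S2 (55.9%) and for 113 in S1 (29%). Of the genes that passed the filter, 4.37%, 2.75% and 2.0% were, in the same order. Sham libraries were at least 0.6 below 0 h for 268 members in S1 (68.7%), but for 32 in S2 (8.21%) and 2 in S3 (0.513%). The shares of the genes that passed the filter were 2.83%, 0.755% and 0.47%. Over the genes that passed the filter, the medians against 0 h lay between -0.09 and 0.02 in both conditions and all 3 series. These comparisons use libraries of the choosing window and are a description. By the 0.6 limit, transected levels stood above 0 h for most members in S3 and S2 and for 29% in S1. The rule chose the members on these transected libraries, and S3 had 1 library at 0 h. Whether the name of early injury-induced genes fits the members was therefore not tested. In S1, 218 members (55.9%) were above 0 h by any amount and 172 (44.1%) were not. The share above 0 h by any amount in S1 was 50.7% over the genes that passed the filter, close to that of members.

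**Figure D3:**
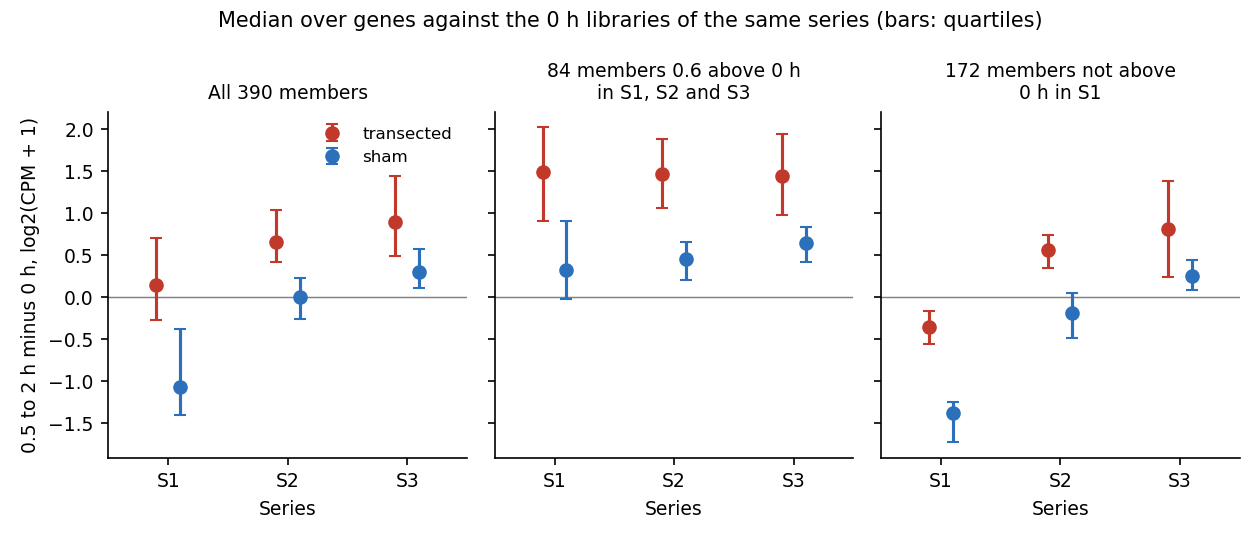
Level at 0.5 to 2 h minus the 0 h level of the same series, log2(CPM + 1), for transected and sham libraries of S1, S2 and S3, with points at the median over genes and bars at the quartiles. Among all members the transected median runs from 0.14 in S1 to 0.90 in S3, and the sham median from -1.06 to 0.31; the middle and right panels show the 84 and 172 members split by their level against 0 h.

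On this measure, chosen after the values were seen, 84 members (21.5%) were at least 0.6 above 0 h in transected libraries of each of S1, S2 and S3, as were 0.882% of the genes that passed the filter. In contrast, 172 members were not above 0 h in S1, and the remaining 134 lay between. The choice fixes that the 84 genes were above 0 h in transected libraries, and their medians were 1.50 in S1, 1.47 in S2 and 1.45 in S3. Their sham medians against the same 0 h libraries were 0.33, 0.46 and 0.64. Hour by hour, their transected median in S1 was 0.22 at 0.5 h, 1.53 at 1 h, 2.36 at 1.5 h and 1.87 at 2 h above 0 h. In S2 it was 1.34, 1.07, 1.58 and 1.63 at the same hours, and in S3 it was 1.43 at 1 h, 1.46 at 2 h, 0.80 at 3 h and 0.57 at 6 h. The sham medians of the same genes in S1 were -0.32 at 0.5 h, 0.04 at 1 h, 1.24 at 1.5 h and 0.67 at 2 h. In S2 they were 0.19, 0.51, 0.83 and 0.25, and in S3 0.97 at 1 h and 0.32 at 2 h. In the uninjured animals of S7, the mean level of the 84 genes in log2(CPM + 1) was 1.82 at 0 h, 2.44 at 1 h, 1.82 at 2 h and 2.26 at 3 h. Transected, sham and 0 h libraries all took part in the choice of these genes, so the order of the 3 is a description.

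The 172 genes were chosen for a transected level not above 0 h in S1, so their levels in that series are a description. Their mean level in log2(CPM + 1) was 4.08 in both S1 libraries at 0 h, 2.73 to 4.19 in the 4 transected libraries and 1.99 to 3.15 in the 4 sham libraries. Among the transected libraries, those at 1 and 1.5 h were the highest, at 4.11 and 4.19. In S2 and S3 the same genes had transected medians of 0.56 and 0.81 above 0 h and sham medians of -0.19 and 0.25. Of the 23 members that reached 100 CPM, 18 were among these 172 genes and 5 among the 84.

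**Figure D4:**
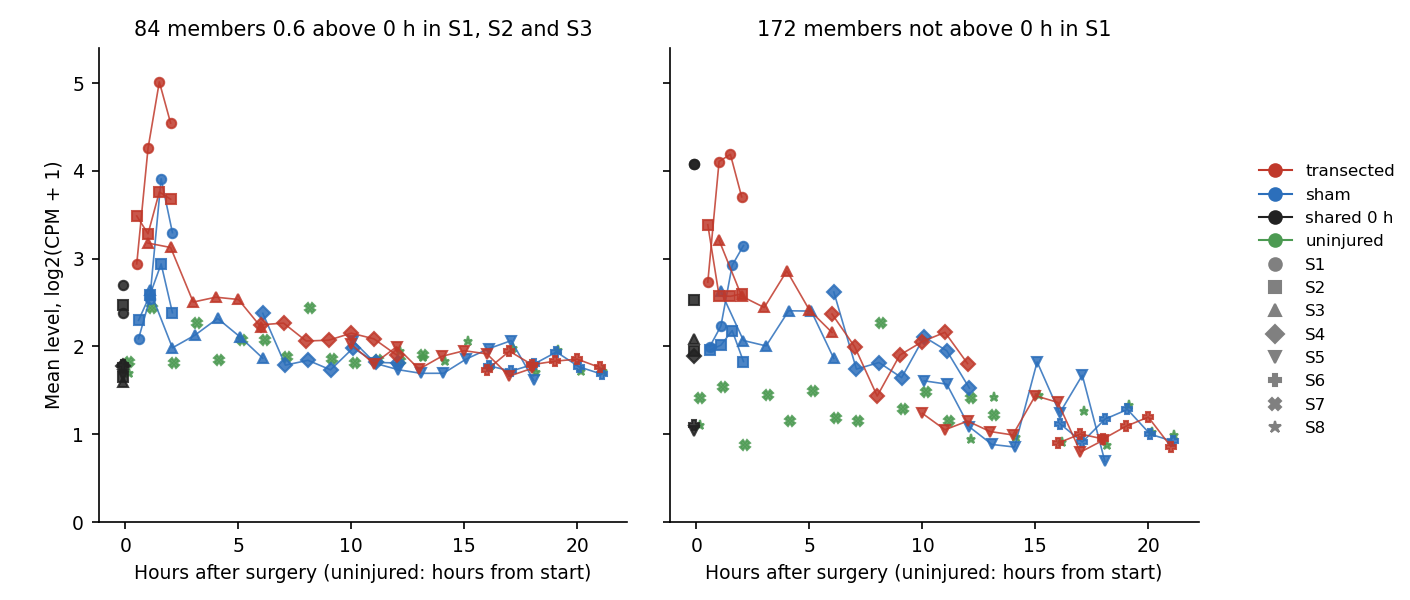
Mean level, log2(CPM + 1), of the 84 members at least 0.6 above 0 h in S1, S2 and S3 (left) and of the 172 members not above 0 h in S1 (right) in each library against the hour. Colours give the condition and symbols the series; at 0 h the S1 libraries stand at 2.38 and 2.70 on the left and at 4.08 on the right, and on the right the 8 h library of uninjured animals stands at 2.26.

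The windows between the 2 choosing windows were tested, to find how long the difference lasted. At 3 to 6 h (4 pairs of S3 and 1 of S4), 26 members were called higher in transected libraries (6.68%, against 2.99% of all genes tested) and 1 was called lower (0.257%, against 1.37%). The 26 genes had log2 differences of 0.62 to 2.78 with a median of 1.23, and all were above 0 in 5 of 5 pairs. Over all members the median log2 difference in the fit was 0.23, against -0.0017 over all genes tested. Of the 26 genes, 18 belonged to the 84 genes described above (21.4% of them). Among the 172 genes edgeR's quasi-likelihood test called 0 at an adjusted p under 0.05, where 47 were higher (27.3%, against 8.64% of all genes tested) and 1 lower (0.581%, against 7.11%) at an unadjusted p under 0.05, and DESeq2 also called 0. The count depended on the 5 h pair of S3, without which 59 members were called higher and 2 lower. The share of all genes called without this pair is not given here, so whether the increase was particular to members cannot be judged. Of the 286 genes chosen without S1, 23 were called higher and 1 lower. The same hour in different animals gave different values, since the median difference over members at 6 h was 0.05 in S3 and -0.33 in S4. At that hour 58.2% of members were above 0 in S3, against 41.8% of the genes that passed the filter, and 28.2% in S4, against 52.8%. S3 had also taken part in choosing the members, by its pairs at 1 and 2 h, whereas S4 had not.

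At 7 to 10 h, 11 members were called higher (2.83%, against 3.92% of all genes tested) and 5 lower (1.29%, against 2.1%). Both shares lay below those of all genes tested. The median log2 difference over all members in the fit was 0.35, with 69.4% above 0, against -0.0089 and 48.2% over all genes tested. Of the 11 genes, 10 had also been called higher at 3 to 6 h. The count fell to 4 higher and 2 lower in the fit without the pairs as a block, and to 6 calls in all without the 7 h, the 8 h or the 9 h pair of S4. The pairs of this window came from S4 and S5, which differed at 10 h. The median over members was then 0.08 in S4 and -0.20 in S5. In S4 60.0% of members were above 0, against 52.4% of the genes that passed the filter, and in S5 25.6%, against 49.7%. At 11 to 15 h, 16 members were called higher (4.11%, against 11.5%) and 12 lower (3.08%, against 11.4%). At this time 22.8% of all genes tested differed, the largest share of the 3 windows, and the share of members was 7.20%. Over all members the median log2 difference in the fit was 0.14, with 60.9% above 0, against -0.0154 and 47.7% over all genes tested. Without the pairs as a block the balance turned, with 10 higher and 19 lower, and without the pairs of S5 at these hours 2 members were called. This window also joined S4 and S5. The median over members at 11 h was 0.33 in S4 and -0.20 in S5. Above 0 were 74.6% and 25.4% of members, against 54.4% and 44.1% of the genes that passed the filter. At 12 h the median was 0.17 in S4 (70.8% above 0, against 54.3%) and 0.10 in S5 (60.3%, against 62.7%). Of the 26 genes, 4 were again called higher at 11 to 15 h, and 2 were called higher in all 3 windows. The shares of all called genes that were called again in another window are not given here. Whether these overlaps were particular to members therefore cannot be judged. In total 337 of 389 members (86.6%) were called in none of the 3 windows, compared with 75.04% of all genes tested. Members were weakly expressed by 11 to 15 h, with mean levels in log2(CPM + 1) of 1.35 in transected and 1.30 in sham libraries. Over the genes that passed the filter the mean level in these libraries was 3.03 to 3.20. Weak genes are called less readily and genes of like level were not compared, so few calls do not show a return to the sham level.

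The change between the windows was tested directly, as the difference at 11 to 15 h minus the difference at 3 to 6 h. It was lower in 24 members (6.17%, against 1.57% of all genes tested) and higher in 1 (0.257%, against 1.09%). The 24 genes included 10 of the 26 that were higher at 3 to 6 h. This test reused the libraries in which the 26 were called, which favours a fall in those genes, so the overlap is a description. Other hours of S3 and S5, which gave most pairs of the windows compared, had also taken part in choosing the members. Without the pairs as a block, 11 members were called, all of them lower. The windows come from different batches of animals, so that time and series cannot be told apart here except at the hours that series share.

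Against 0 h, 43 members were called higher in transected libraries at 3 to 6 h (11.1%, against 5.35% of all genes tested) and 1 lower (0.257%, against 4.24%). Of the 26 members higher than sham in this window, 24 were also higher than 0 h. Both comparisons used the same transected libraries, which favours such an overlap. Its share over all genes called higher than sham is not given here, so it is a description. At 7 to 10 h 16 members were called higher (4.11%, against 4.17%) and 2 lower (0.514%, against 2.42%), and at 11 to 15 h 7 were called higher (1.8%, against 7.76%) and 4 lower (1.03%, against 6.48%). Without S1 and S2, the 3 windows in this order had 48, 21 and 11 members called higher and 1, 0 and 1 called lower. The shares of all genes in that fit are not given here. In sham libraries 2 members were called higher than 0 h at 3 to 6 h and 0 lower, where 0.275% of all genes tested were called in either direction. At 7 to 10 h and at 11 to 15 h edgeR's quasi-likelihood test called 0 members in sham, where 0.00309% and 0.0155% of all genes tested were called, and 41 members (10.5%) had an unadjusted p under 0.05 in each of these windows, against 4.66% and 4.84% of all genes tested. In the earlier of these windows 29 of the 41 were lower than 0 h, and in the later 31 of its 41 were. Transected and sham were set against the same 0 h libraries, so these comparisons share their controls. S3, S4 and S5, which gave the libraries of these windows, each had 1 library at 0 h. Within each of these series the comparison thus rests on 1 unreplicated 0 h library, and the calls do not measure its spread.

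Only 3 gene models are given by their identifiers, the pair with the largest early difference among the 143 members that were called and above 0 in 10 of 10 early pairs, and the only member called lower at 3 to 6 h. Xelaev18026124m.g had 7.53, 24.1 and 158 CPM (lowest, median and highest of 10) in transected libraries at 0.5 to 2 h and 0.711, 5.42 and 68.6 CPM in sham. The groups overlapped, although the transected library was higher in each of the 10 pairs. At 0 h it had 30.9 and 18.4 CPM in S1, 11.0 and 1.14 CPM in S2, 0.795 CPM in S3, 2.31 CPM in S4, 0.826 CPM in S5 and 0.726 CPM in S6. The S1 transected library at 0.5 h, at 13.1 CPM, was thus below both S1 libraries at 0 h, and those at 1, 1.5 and 2 h, at 81.1, 158 and 155 CPM, were above them. At 3 to 6 h its transected libraries had 6.17, 7.42, 3.92 and 2.01 CPM in S3 and 1.99 CPM in S4, and its sham libraries 3.90, 6.60, 2.28 and 1.27 CPM in S3 and 5.12 CPM in S4. By then the groups overlapped almost fully, with a log2 difference of 0.24 ± 0.41 (SE, n = 5 pairs, edgeR's adjusted p = 0.85).

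Xelaev18023622m.g had 4.78, 15.7 and 69.6 CPM (lowest, median and highest of 10) in transected and 1.36, 4.20 and 26.2 CPM in sham libraries at 0.5 to 2 h. In S1 it was at 7.56 and 5.83 CPM at 0 h, at 9.36, 69.6, 65.4 and 45.2 CPM in transected libraries from 0.5 to 2 h, and at 1.36, 5.41, 26.2 and 14.6 CPM in sham. Sham was therefore below 0 h at 0.5 and 1 h and above it later, and transected was above 0 h throughout. At 3 to 6 h the transected libraries had 5.19, 4.38, 3.03 and 2.42 CPM in S3 and 2.69 CPM in S4, and the sham libraries 1.43, 1.09, 1.51 and 1.75 CPM in S3 and 1.84 CPM in S4. The groups did not overlap, and the difference was 1.19 ± 0.32 on the log2 scale (SE, n = 5 pairs, edgeR's adjusted p = 0.023). It was 0.38 ± 0.34 at 7 to 10 h (adjusted p = 0.68) and 0.25 ± 0.31 at 11 to 15 h (adjusted p = 0.62).

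Xelaev18014474m.g crossed over. In transected libraries at 0.5 to 2 h it had 44.7, 89.9 and 180 CPM (lowest, median and highest of 10), in sham libraries 23.2, 55.5 and 99.6 CPM, and in the 8 libraries at 0 h 4.54, 9.63 and 37.2 CPM. Both operated conditions were thus high soon after surgery. At 3 to 6 h transected libraries had 19.1, 21.2, 10.7 and 12.0 CPM in S3 and 14.5 CPM in S4, and sham libraries 78.4, 48.5, 48.9 and 27.2 CPM in S3 and 62.8 CPM in S4. All transected values lay below all sham values, with a log2 difference of -1.72 ± 0.27 (SE, n = 5 pairs, edgeR's adjusted p = 1.8e-05). The difference was -1.54 ± 0.27 at 7 to 10 h (adjusted p = 0.00011), below 0 in 5 of 5 pairs, and -0.74 ± 0.23 at 11 to 15 h (adjusted p = 0.016), below 0 in 5 of 7 pairs. On the scale of the rule, the mean over these 7 pairs was -0.66 with an SD of 1.08, so the pairs varied widely. In S5 the transected library was the higher one at 14 and 15 h. Sham was above 0 h at 3 to 6 h by 1.83 ± 0.38 (adjusted p = 0.0055), and transected was at 0.10 ± 0.39 (adjusted p = 0.92). The same gene also changed over the hours in animals without surgery (adjusted p = 0.00023), with 9.55 and 21.1 CPM at 0 h, 58.1 CPM at 1 h, 81.6 CPM at 2 h, 67.8 CPM at 3 h and 21.7 CPM at 21 h. Its early rise was thus also present without surgery, and only the transected libraries were low at 3 to 6 h.

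**Figure D5:**
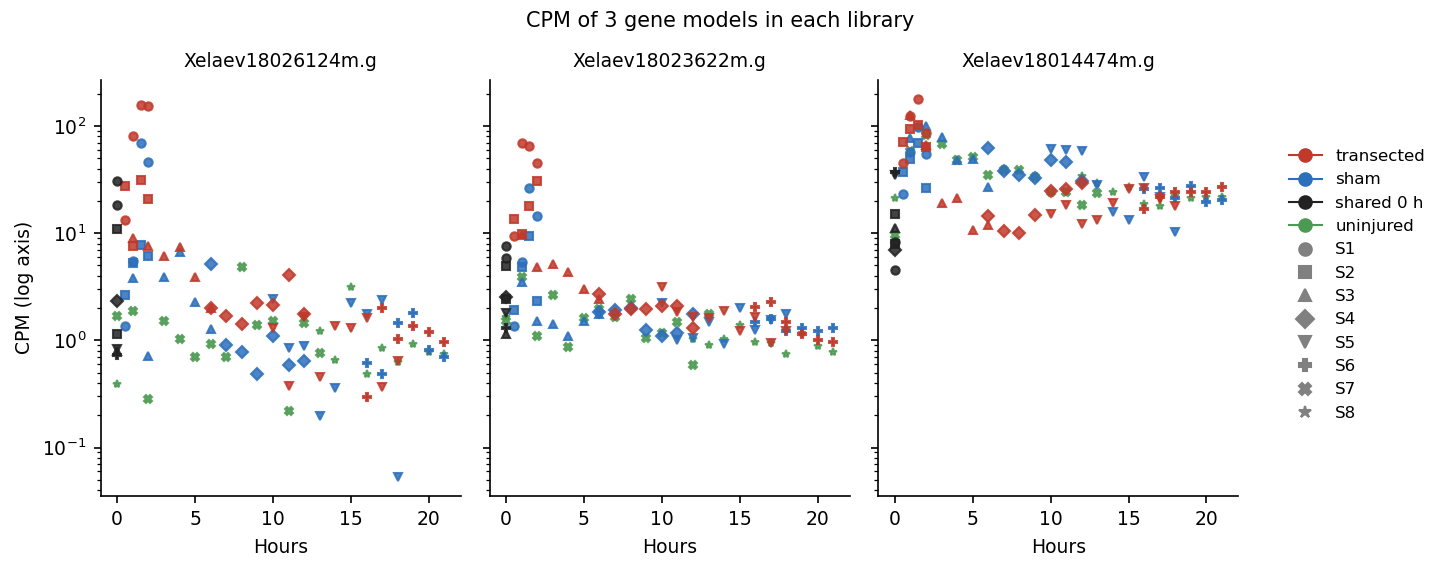
CPM, on a log axis, of the 3 gene models in each library of the time series against the hour, with 1 point per library, colours for the condition and symbols for the series. The left and middle genes fall from early transected values of up to 158 and 69.6 CPM to a few CPM, and in the right gene the transected library lies below the sham library of each pair from 3 h to 10 h.

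Uninjured animals showed how the members moved without surgery. The mean member level ranged from 1.02 to 1.99 over the 25 uninjured libraries, with a median of 1.29. The highest was the 8 h library of S7 at 1.99, and the next was the 1 h library at 1.60. In the 8 h library 355 of 390 members (91.0%) were above the mean of the 7 and 9 h libraries, with a median of 0.52, compared with 53.7% and 0.02 over the genes that passed the filter. The 172 genes shared this most, with 167 above their neighbours and a median of 0.72. Across the 25 uninjured libraries the mean correlation between pairs of members was 0.28, and 0.38 among the 172 genes, against 0.07 between all genes that passed the filter. These correlations are descriptions over libraries of the same batch of animals that differed in depth, at 13.6 to 29.6 M expected counts. They include the 8 h library, and values without it are not given here. Members thus varied together over these 25 libraries of animals that had no surgery. The part of such movement in the early difference was not tested. At 1 and 2 h the uninjured libraries stood at 1.60 and 1.03, and the sham libraries at these hours at 1.63 to 2.84, in other series of animals.

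In edgeR's test of change over time windows in uninjured animals, 13 members were called (3.34%, against 1.39% of all genes tested). Of these, 11 belonged to the 84 genes (13.1% of them), and 0 to the 172, of which 17 had an unadjusted p under 0.05 (9.88%, against 13.4% of all genes tested). In 11 of the 13 genes the fitted level at 1 and 2 h was above 0 h, with a median of 1.39 on the log2 scale over the 13. Of the 13 genes, 8 were highest at 1 and 2 h among the windows. That window held 2 libraries, both of S7. How many of all genes called in this test moved in these ways is not given here, so neither count is particular to members. The count was 14 without the 8 h library, 6 without the 0 h libraries and 28 without the series as a block.

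In the Torin1 experiment the members' mean levels were low in both treatments. The mean member level was 0.84 with Torin1 and 0.82 with DMSO at 24 h, 0.99 and 1.05 at 48 h, and 0.86 and 1.03 at 96 h, where no library was replicated and no test was made. At 24 h, 6 members (1.54%) were at least 2-fold higher with Torin1 and 2 (0.513%) at least 2-fold lower on the log2(CPM + 1) scale, where 0.758% and 1.33% of all genes were. At 48 h 5 were higher (1.28%) and 13 lower (3.33%), where 0.226% and 0.331% of all genes were. At 96 h 2 were higher (0.513%) and 12 lower (3.08%), where 0.0742% and 0.183% of all genes were. Most of the members so counted on the later days were lower with Torin1, and their shares lay above those of all genes. With a minimum of 5 CPM in either library, 6 members were lower and 2 higher at 48 h, and 4 were lower and 2 higher at 96 h. The shares of all genes at this minimum are not given here, so whether those of members lay above them cannot be judged. Only 120, 146 and 135 members reached 1 CPM in either library on these days, and 1 member was at least 2-fold lower and 1 at least 2-fold higher on all 3 days. The members in their early window were not sampled in this experiment.

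The members also differed in their medians from the genes that passed the filter, in features that the rule did not use. Their median effective length, the transcript length that the authors' FPKM implies, was 1855 bases (368 members with a value), compared with 2280 bases over the genes that passed the filter. The quartiles of the members were 1067 and 2913 bases, and lengths among genes of like level are not given here. RSEM divides reads that fit several genes, which leaves fractional counts, and a median of 80.5% of a member's nonzero counts were whole (within 0.005), against 19.8% over the genes that passed the filter. Among genes with a mean of 1 to 10 CPM over the time series these values were 78.4% (182 members) and 42.3% (9951 genes). Members thus had more whole counts than the whole set of genes of like level. The 68 members (17.4%, against 42.1% of the genes that passed the filter) with under 10% whole counts share reads with other gene models, and their values are uncertain.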

How the data were processed

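The authors quantified each library with RSEM after mapping with Bowtie (Bowtie2 in the Torin1 experiment) to transcriptome v9.1 of *X. laevis*, with CASAVA 1.7 named in the submitters' processing notes, and deposited 1 table per library. The deposited expected counts are not normalized, and TPM and FPKM, which the authors' tables also give, are scaled to the library and to transcript length. Here expected counts were rounded, and 32328 genes that reached 5 counts at a minimum of 4 time points of a condition were tested with edgeR 4.0.16 (R 4.3.3, TMM normalization, quasi-likelihood F-test, p adjusted over all genes after Benjamini and Hochberg and called under 0.05). The 72 transected and sham libraries were fitted with the pair (same series and hour, hence the same batch of animals) as a block. Deviations from the group means correlated within pairs by 0.419 on average and by over 0.1 in 31 of 36 pairs. Hours of a window served as replicates, and spinal cords were pooled. In the paired fit, the spread was estimated over all 72 libraries. Its p-values thus measure the spread between pooled libraries of different hours and series, and not between single animals. Comparisons with 0 h and over uninjured hours used the series as a block, and S3 to S6 each had 1 library at 0 h. Tests were tested on simulated data. Of 50 genes changed by a log2 of 1, the tests called 48 at 3 to 6 h, 43 for the change between windows and 47 for sham against 0 h at 7 to 10 h, and of 50 changed by 0.6 they called 34, 12 and 24. The median SD of a member's difference over the 5 pairs at 3 to 6 h was 0.46, on the scale of the rule. How often changes of these sizes would be called in the members, at their own levels and spread, was not tested. DESeq2 1.42.0 was an alternative. Members, rules and lists were chosen with earlier results of these data known. Gene models named were at most 2 with the largest early difference and 2 with the most negative called difference at 3 to 6 h, where 1 was found. Lists of pathway and cell type genes could not be applied, because no identifier matched a symbol.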

Additional observations from a re-analysis of the deposited data

Results flagged for a closer look

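Groups of 4 to 10 libraries or pairs were examined for a value standing apart from the rest, and chance gives such a value in about 1 in 20 groups (65 groups were examined). The mean member level of the 8 h library of uninjured animals, 1.99, stood apart from the 3 other uninjured libraries at 7 to 10 h. Among the pairs at 16 to 21 h, the 17 h pair of S5 stood apart with a median member difference of -0.48. Xelaev18023622m.g stood apart at 26.2 CPM in the sham library of S1 at 1.5 h and at 3.16 CPM in 1 transected library at 7 to 10 h. Xelaev18026124m.g stood apart at 4.04 CPM in 1 transected and at 2.24 CPM in 1 sham library at 11 to 15 h. The transected minus sham difference changed between 3 to 6 h and 11 to 15 h in 25 members by edgeR's test of the difference between the windows.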

How the results depend on the processing

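The number of members was 278 to 523 under other library sizes, TPM, pseudocounts of 0.5 and 2 and without each early series or late series, each within 1.5 times of 390. Membership changed more, since a pseudocount of 2 shared 242 of the 390 members, the rule without S1 244, TPM 251 and the late pairs of S5 alone 269. Requiring in addition a level 0.6 above 0 h in S1 to S3, an alternative chosen after seeing the data, left 84. Leaving out 1 pair gave 23 to 61 called members at 3 to 6 h and 6 to 12 at 7 to 10 h. Without the pairs as a replicate block, 24 members were called in the 3 to 6 h window, 6 in that of 7 to 10 h, 29 in that of 11 to 15 h (10 higher and 19 lower, against 16 and 12 with the block) and 11 for the change between windows. The 11 to 15 h count was 2 without the pairs of S5, in which fewer pairs were tested. In uninjured animals the count was 28 without the series block and 6 without the 0 h libraries. At least 2-fold different members with Torin1 numbered 18, 1 and 4 at 24 h with a pseudocount of 0.5, a pseudocount of 5 and a minimum of 5 CPM, where 8 were reported. They numbered 4 and 8 at 48 h with a pseudocount of 5 and the minimum of 5 CPM, and 26, 3 and 6 at 96 h. The share at or above 0.6 in held-out libraries was 43.9% in S2 and 78.7% in S1, against 38.8% in S3. For the fits that left out a pair, a series or the block, the shares of all genes tested are not given here. The causes were not tested. Summing homeologs was not run, since no symbols were matched. Members chosen without S1, DESeq2 and DESeq2 size factors kept the called counts of the 3 windows within 1.5 times, as did the absence of a filter at 3 to 6 h and 11 to 15 h. At 7 to 10 h the absence of a filter gave 12 higher and 12 lower, against 11 and 5. Low counts in sham libraries limit the precision of the members' differences.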
